A study of Mus musculus with 3 samples.

Results

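Capillary endothelial cells, which line the smallest vessels of the brain, were described in 1 single-cell library of mouse hippocampus. A cell was taken as endothelial with at least 5 UMIs (single counted RNA molecules) summed over Cldn5, Flt1, Pecam1 and Ly6c1, at most 10 over C1qa, C1qb and C1qc, and at most 20 of Ttr. Among these, a capillary cell had at most 1 UMI over the arterial genes Gkn3, Bmx, Sema3g and Fbln2, at most 1 over the venous-type genes Lrg1, Il1r1 and Vwf, and at least 1 UMI of Car4 or Cxcl12. The rule gave 645 cells, 9.95% (9.23 to 10.7) of the 6485 cells that passed the cell filter and 42.4% (39.9 to 44.9) of the 1521 endothelial cells. The other 876 endothelial cells were 194 arterial-gated cells, with at least 2 UMIs of the arterial genes, 536 venous-gated cells, with at least 2 of the venous-type genes, 108 cells past both gates, and 38 cells past neither that lacked Car4 and Cxcl12.

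The library came from 5 pooled mice of the genotype Aldh1l1CreERT2;Rosa26-LSL-tdTomato, which carry a tamoxifen-inducible recombinase driven by the astrocyte promoter Aldh1l1 and a red reporter that the recombinase switches on. A Cre-dependent AAV-TIGRi-Hopx vector with EGFP had been placed in the hippocampus, and cells sorted for tdTomato and EGFP were loaded 3 weeks after tamoxifen. All groups below are cells of this library, so they share genotype, vector and tamoxifen, and there is no library without the vector. The anti-Flag and IgG chromatin samples of primary astrocytes were not analysed here.

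There is 1 library and its barcodes carry no mouse of origin, so the differences could not be checked against replicates and carry no p-values. Levels are UMIs per 1000000 UMIs of a group (CPM), and intervals in parentheses are exact 95% limits that cover counting error only. A gene counted as measured in a comparison when its UMIs over both groups reached 100, and it was called higher or lower past a 1.5-fold ratio. Capillary cells had 683 to 15054 UMIs with a median of 3043, against 3709.5 in arterial-gated and 4151.5 in venous-gated cells. The rule sets upper limits on arterial and venous UMIs, so cells with fewer UMIs pass it more easily, and in an alternative called thinned gates, in which cells under 2000 UMIs were left out and the others thinned to 2000 before gating, 733 of 1336 endothelial cells (54.9%) were capillary. Without thinning, 532 of the 1330 endothelial cells with at least 2000 UMIs (40.0%) were capillary. In another alternative, called 0 arterial and venous gate UMIs, all endothelial cells were regrouped with 1 such UMI enough for a zone call. Members with 1 such UMI joined the other endothelial cells. The 67 arterial-gated and 48 venous-gated cells with 1 UMI of the other zone moved to the cells past both gates. This gave 348 members, 219 arterial-gated, 671 venous-gated and 17 ungated cells.

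Brain capillaries form the largest surface of the blood-brain barrier, where sealed junctions, glucose and amino acid carriers, efflux pumps and a low rate of vesicle traffic control what enters the tissue. Endothelial gene expression changes gradually from artery through capillary to vein, an arrangement called zonation. Notch signalling is known for the arterial end and the nuclear receptor Nr2f2 for the venous end, and Wnt signalling maintains the barrier along the way. Car4 is a membrane-bound carbonic anhydrase, and Cxcl12 a chemokine that binds the receptor Cxcr4.

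The promoters of both capillary gating genes are shown because the rule rests on them. They are the 250 bases before the RefSeq start on GRCm38.p6, a build other than that of the counts, with capitals for matches to TGGGAA (the core bound by the Notch effector RBPJ), CTTTGA (TCF/LEF factors of the Wnt pathway), CCACCC (KLF factors) and ACAATG (SOX factors) on either strand. Car4 is at chr11:84957504-84957753 on the plus strand and Cxcl12 at chr6:117168285-117168534 on the plus strand.
Car4: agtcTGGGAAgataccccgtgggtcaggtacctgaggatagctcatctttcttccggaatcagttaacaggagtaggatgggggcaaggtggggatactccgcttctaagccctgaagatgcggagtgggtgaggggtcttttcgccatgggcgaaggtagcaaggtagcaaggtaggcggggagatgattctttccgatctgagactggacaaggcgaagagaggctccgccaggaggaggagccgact
Cxcl12: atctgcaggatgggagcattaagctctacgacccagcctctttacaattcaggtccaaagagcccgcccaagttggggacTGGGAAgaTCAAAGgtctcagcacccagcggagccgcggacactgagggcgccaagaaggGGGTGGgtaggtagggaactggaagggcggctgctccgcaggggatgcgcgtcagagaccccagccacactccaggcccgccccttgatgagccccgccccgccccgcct
Car4 held 1 match, to the RBPJ core, 246 to 241 bases before the start. Cxcl12 held 3, with the RBPJ core at 170 to 165 bases, the TCF/LEF core at 162 to 157 on the opposite strand and the KLF core at 110 to 105 on the opposite strand. Of 27025 promoters of this length, 21.5% held the RBPJ core, 14.05% the TCF/LEF core, 27.7% the KLF core and 10.99% the SOX core, and a match is a description of the letters only.

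The gating genes chose the cells, so their values are a description. Cxcl12 had 5234 UMIs in 603 of the 645 cells and Car4 had 1027 in 374. The 2 genes came together in 332 cells (51.5%), Cxcl12 alone in 271 (42.0%) and Car4 alone in 42 (6.51%). Cldn5, the main tight junction claudin of brain endothelium, had 5041 UMIs in 610 cells. As a background for these shares, microglia-gated cells, at a median of 6287 UMIs, held a Cxcl12 UMI in 0.904% of cells, a Car4 UMI in 0.469% and a Cldn5 UMI in 1.81%. With cells thinned to 2000 UMIs, capillary cells held them in 90.0%, 49.1% and 94.5% and microglia-gated cells in 0.208%, 0.173% and 0.485%. These genes were not limited to the members. Without thinning, a Car4 or Cxcl12 UMI was in 92.3% of arterial-gated and 92.0% of venous-gated cells. Car4 was in 77.2% of venous-gated and 11.3% of arterial-gated cells, Cxcl12 in 66.0% and 90.7%, and Cldn5 in 96.8% and 97.9%. The rule sets members apart from these cells by its limits on arterial and venous gate UMIs.

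Pooled levels of the zonation lists changed on both sides of the limits of the rule. Genes that vary with the gating genes differ through this division. Whether single cells change gradually or the mix of cells changes was not tested. Genes of an arterial list without the gating genes summed to 3723 CPM in cells with 0 arterial gate UMIs and 5252 with 1, which are members, and to 6434 with 2 and 8196 with 3, which are not. The venous list summed to 2085 CPM with 0 venous gate UMIs and 2559 with 1, just inside the limit, and to 3175 with 2 and 3301 with 3, just outside it. The capillary list of 16 genes summed to 7075 CPM in the 38 cells with no Car4 or Cxcl12 UMI, 11793 with 1 UMI, 12063 with 2 and 13806 with 3. The arterial list was higher at each step, by less across the limit than on either side of it, and the venous list by more across the limit than on either side. Of the members, 126 carried 1 arterial gate UMI, 213 carried 1 venous gate UMI and 348 carried neither.

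**Figure D1:**
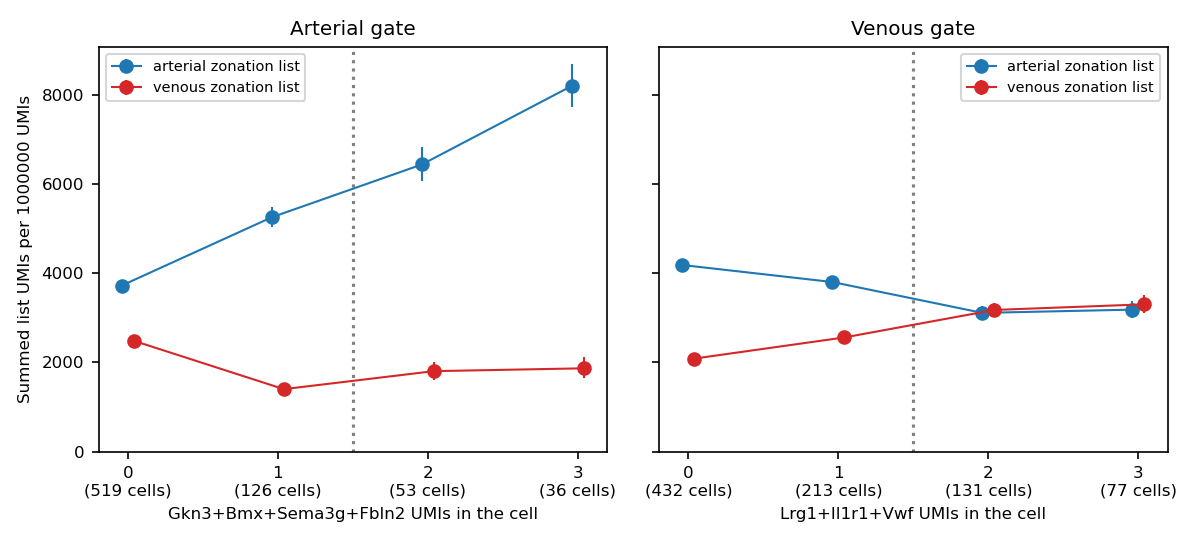
Summed UMIs per 1000000 of the arterial and venous zonation lists (without gating genes) in cells grouped by their arterial gate UMIs (left) and venous gate UMIs (right), with exact 95% Poisson intervals and the limit of the rule as a dotted line. The arterial list climbs from 3723 at 0 to 8196 at 3 arterial gate UMIs and the venous list from 2085 to 3301 over the venous gate UMIs.

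Markers that the rule did not use fitted a brain endothelial identity. The glucose transporter Slc2a1 was at 3628 CPM (3547 to 3711) in capillary cells and 117 in microglia-gated cells, and the efflux pump Abcb1a was at 1338 CPM (1289 to 1389). Plvap, a diaphragm protein of leaky and developing vessels, had 8 UMIs in 3 of 645 cells, and Selp, an adhesion gene of activated and larger venous vessels, had 0. The cycle gene Mki67 had 0 UMIs as well. Taken as 3 counts, a level of 0 in the 645 cells allows a share of cells with a UMI of up to 0.465%.

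Markers of other cell types were found in capillary cells. An astrocyte marker UMI was in 582 of the 645 and a microglia marker UMI in 418, at medians of 4 and 1 UMIs per cell. The 9 microglia markers that are not gating genes summed to 365 CPM, against 363 in arterial-gated, 309 in venous-gated and 18764 in microglia-gated cells. Pericyte markers, which include the potassium channel gene Kcnj8, summed to 267 CPM, against 393 and 168 in arterial- and venous-gated cells, with Kcnj8 itself at 2.42 CPM in capillary cells. Smooth muscle markers summed to 50.8 CPM, against 413 in arterial-gated and 22.8 in venous-gated cells. Astrocyte markers summed to 1669 CPM against 1267 and 1264, and most of this was Sparcl1, an astrocyte gene that endothelium also expresses, at 1376 CPM. The count of 582 cells includes Sparcl1 and so is not one of astrocyte RNA only. Hemoglobin and other red cell markers summed to 4075 CPM, against 1392 and 427, in 58 of the 645 cells, and 1 cell held 25.6% of it. Hopx, the vector's target, was at 18.4 CPM (13.01 to 25.2) in 10 cells, with 39.5% in 1 cell, against 14.0 CPM in microglia-gated cells. EGFP had 2 UMIs and tdTomato 7 in the 645 cells, although the sort was for both reporters.

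The main comparison set capillary cells against the other 876 endothelial cells. Of the 3947609 counted UMIs of those cells, 2547670 came from venous-gated and 740928 from arterial-gated cells, so the ratios weigh the venous-gated cells most. Capillary cells were lower in 8 of 12 genes of the venous list and higher in few genes of the capillary list. Of 7358 genes, 113 (1.54%) were called higher and 215 (2.92%) lower (341 with 0 arterial and venous gate UMIs), and the median log2 ratio was 0.01. The cells were divided by UMIs of arterial and venous genes in the same cells, so genes that vary with those genes differ through the division, and the ratios describe the groups so divided. Of the 16 genes of the capillary list, 3 were higher and 0 lower (median 0.34). Of 12 venous genes, 8 were lower and 0 higher (median -1.06), and of 16 arterial genes 5 were lower and 1 was higher (median -0.29), the higher one being Clu, a clusterin gene that astrocytes also express. Among the lower arterial genes, Mgp and Stmn2 were higher than in venous-gated cells alone, and Eln was lower.

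Among the genes higher in capillary cells, Gpr155, a lysosomal cholesterol sensor, was at 65.8 CPM (55.2 to 77.8) against 25.8 (21.1 to 31.4), a ratio of 2.55 (1.96 to 3.32). Ivns1abp, an actin-binding kelch protein gene, was at 181 CPM against 81.6, a ratio of 2.22 (1.91 to 2.58). Retreg1, which encodes a receptor for the autophagy of endoplasmic reticulum, stood at 98.7 CPM against 45.3, a ratio of 2.18 (1.77 to 2.68). Each of these genes was spread over at least 110 capillary cells, and no cell held more than 3.48% of its UMIs. Hmcn1, a large extracellular matrix protein gene, was at 590.2 CPM against 313, a ratio of 1.88 (1.74 to 2.04), and Rgcc, a regulator of the cell cycle and of endothelial growth, at 1541 CPM against 888, a ratio of 1.74 (1.65 to 1.82). The leucine-rich repeat gene Lrrn3 was at 2.07 times (1.64 to 2.63) and the Wnt inhibitor Notum at 1.72 times (1.38 to 2.14). Nid2, a basement membrane nidogen, was at 1.70 times (1.20 to 2.41), and the glutamate carrier Slc1a1 at 1.60 times (1.43 to 1.79). Nrp1, the co-receptor of Vegfa and semaphorins, was at 1.59 times (1.38 to 1.83). Nid2 and Nrp1 were no longer past the fold when members had to have 0 arterial and venous gate UMIs, with log2 ratios of 0.49 and 0.56, nor Notum in cells of 3000 to 9000 UMIs, at 0.52.

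Genes lower in capillary cells included members of the venous, leukocyte adhesion and arterial lists. Vcam1, a receptor for leukocyte integrins, was at 26.1 CPM (19.6 to 34.1) in 30 capillary cells against 244 (229 to 260.1) in 202 of the others, a ratio of 0.107 (0.0798 to 0.141). Icam1, another leukocyte receptor, was at 52.7 CPM against 163, a ratio of 0.324 (0.262 to 0.398). Ptgs2, the inducible prostaglandin synthase, had 18 UMIs against 227, a ratio of 0.151 (0.0881 to 0.245). These adhesion and prostaglandin genes were low in capillary cells as a group but not at 0, and with thinned gates the log2 ratios were less extreme, -2.32 for Vcam1, -0.99 for Icam1 and -1.88 for Ptgs2 in place of -3.21, -1.62 and -2.69. Nr2f2 was at 45.5 CPM against 108, a ratio of 0.419 (0.332 to 0.525). Eln, the elastin gene of large vessels, was at 0.284 times (0.198 to 0.399), Mgp, an inhibitor of calcification in arteries, at 0.325 times (0.275 to 0.381), and the growth factor gene Vegfc at 0.318 times (0.185 to 0.520).

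**Figure D2:**
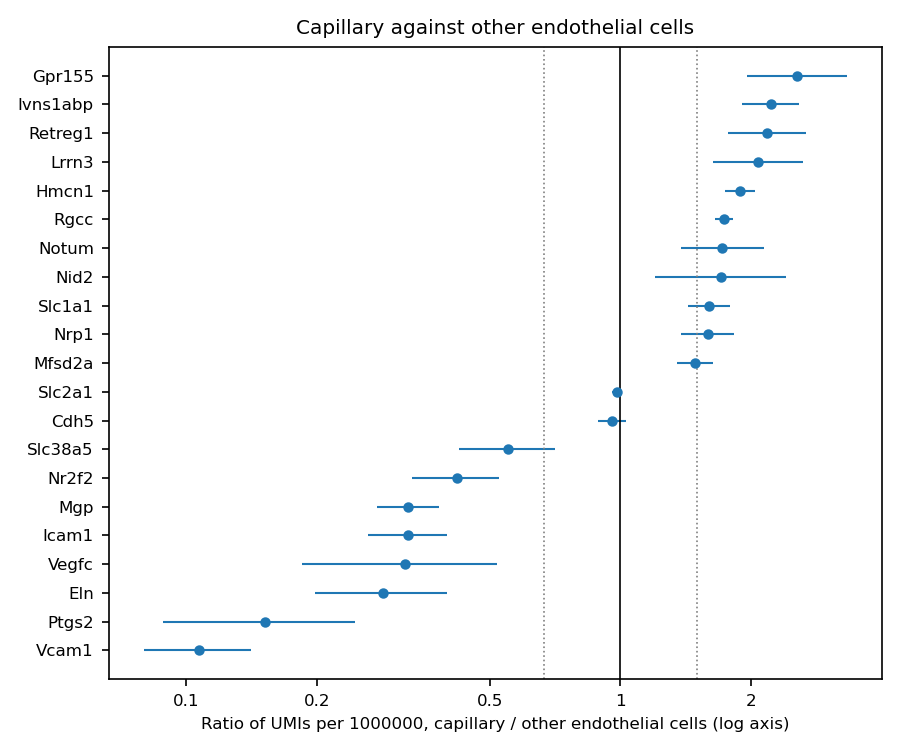
Ratio of UMIs per 1000000 between the 645 capillary and the 876 other endothelial cells for named genes, on a log axis, with exact 95% intervals of counting error and dotted lines at the 1.5-fold limits. Gpr155 lies farthest to the right at 2.55 and Vcam1 farthest to the left at 0.107, while Slc2a1 and Cdh5 lie near 1.

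Some of the most extreme ratios came from few cells. Hbb-bt, a beta globin gene, had 1296 UMIs in 15 capillary cells against 353 in 17 other cells, a ratio of 7.01 (6.23 to 7.91), and 1 cell held 33.6% of the capillary UMIs. Leaving out the 22 members and 31 other cells with at least 10 hemoglobin UMIs or in the clusters led by mural or ciliated genes, an alternative added after the data were seen, gave it a log2 ratio of 0.34, and requiring 0 arterial and venous gate UMIs gave -0.84. Ccdc153, a gene of motile cilia in ependymal cells, was at 2.59 times (1.93 to 3.48) with its UMIs in 17 capillary cells, and at a log2 ratio of 0.56 under the same alternative. In the other direction, Jchain, a plasma cell gene, had 7 UMIs against 482, of which 1 cell held 55.0%. The 4 measured MHC class II genes were all lower (median log2 ratio -2.82), and H2-Aa was at 14.0 CPM against 91.7, with 34.8% of the latter in 1 cell. With thinned gates the log2 ratio of H2-Aa was 1.42 and that of Cd74, another of the 4, was 0.18 in place of -2.61, so both turned. The part of red cell, ciliated, plasma cell or myeloid RNA in these differences was not tested.

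Against arterial-gated cells, capillary cells were lower in arterial genes and higher in barrier carriers. Of 5089 genes, 323 (6.35%) were called higher and 237 (4.66%) lower, or 160 and 153 with 0 arterial and venous gate UMIs. Of 14 measured arterial genes, 12 were lower and 0 higher (median log2 ratio -1.39), and 4 of 9 venous genes were higher and 3 lower (median 0.50), the lower ones being Vcam1, Adamts1 and Tmem252. The capillary list had 8 of 16 genes higher and 2 lower (median 0.61), a median that was 0.51 with 0 arterial and venous gate UMIs. Both lower members, Tgfb2 at 0.503 times (0.409 to 0.620) and the glutamine synthetase gene Glul at 0.564 times (0.524 to 0.606), were higher in arterial-gated than in capillary cells, and so did not follow the list's name on this side.

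The arterial genes lower in capillary cells covered signalling, adhesion and wall proteins. Mgp was at 85.1 CPM (73.0 to 98.7) against 634 (578 to 694), a ratio of 0.134 (0.112 to 0.160). Alpl, alkaline phosphatase, was at 57.1 CPM against 215, a ratio of 0.266 (0.208 to 0.340). Cdh13, a cadherin without a cytoplasmic domain, was at 84.2 CPM against 374, a ratio of 0.225 (0.185 to 0.273). Stmn2, a microtubule regulator better known from neurons, was at 91.0 CPM against 449, a ratio of 0.202 (0.168 to 0.243). None of these genes was absent from capillary cells, where Stmn2 was found in 88 and Cdh13 in 82 cells. In the Notch pathway 3 of 8 genes were lower and 0 higher, beside 4.66% and 6.35% of all genes. The target Hey1, also on the arterial list, was at 0.473 times (0.368 to 0.609). The ligands Jag1 at 0.627 times (0.485 to 0.815) and Jag2 at 0.642 times (0.546 to 0.755) were the others. With 0 arterial and venous gate UMIs the ligands were no longer past the fold, at log2 ratios of -0.33 and -0.48. Efnb2, the arterial ephrin, was at 0.557 times (0.414 to 0.753). The smooth muscle gene Acta2 was at 0.0887 times (0.0548 to 0.139), with its UMIs in 12 cells of each group and 46.5% of the arterial ones in 1 cell, and its log2 ratio was -1.48 in place of -3.47 without the cells rich in hemoglobin or in the mural and ciliated clusters. Smooth muscle RNA was thus higher in arterial-gated cells, and its part in the wall genes was not tested.

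Other genes stood several fold above their level in arterial-gated cells. Fmo2, a flavin monooxygenase, was at 330.4 CPM (306 to 356) in 247 capillary cells against 35.1 (22.9 to 51.4) in 17, a ratio of 9.42 (6.37 to 14.5), or a log2 ratio of 3.21 that was 2.21 with 0 arterial and venous gate UMIs. Adgrl3, a latrophilin adhesion receptor, was at 616 CPM against 76.9, a ratio of 8.01 (6.14 to 10.6). Ndnf, a secreted factor, had 154 UMIs against 6, a ratio of 9.20 (4.13 to 25.5). Tmsb10, a thymosin that binds actin monomers and stands on the venous list, was at 1209 CPM against 223, a ratio of 5.43 (4.64 to 6.40), and Hmcn1 at 4.56 times (3.70 to 5.67). Fmo2 and Adgrl3 were also abundant in venous-gated cells, at 759.9 and 943 CPM, so their high values were not limited to capillary cells.

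Barrier carriers were one of the groups with many members higher than in arterial-gated cells, 10 of 20 higher and 1 lower (median log2 ratio 0.59, and 0.45 with 0 arterial and venous gate UMIs), beside 6.35% and 4.66% of all genes. The higher carriers Slc16a1, Slc7a1, Slc7a5 and Slc22a8 are also counted as higher in the capillary list, so these lists are not independent. Slc16a1, the monocarboxylate carrier for lactate and ketones, was at 207 CPM (188 to 228) against 72.9 (54.7 to 95.1), a ratio of 2.85 (2.14 to 3.85). Slc7a5, the light chain of the large neutral amino acid carrier, was at 1352 CPM against 674, a ratio of 2.01 (1.82 to 2.21). Slc7a1, for cationic amino acids, was at 2.04 times (1.78 to 2.35), and Slc39a8, a zinc and manganese importer, at 2.67 times (1.74 to 4.28). The taurine carrier Slc6a6 was the lower one, at 1187 CPM against 1917, a ratio of 0.619 (0.580 to 0.661). Tfrc, the transferrin receptor that carries iron into the brain, was at 434 CPM (406 to 464) against 151 (125 to 182), a ratio of 2.87 (2.36 to 3.53). Slc2a1 did not share this pattern, with 3628 CPM in capillary, 3593 in arterial-gated and 3769 in venous-gated cells. None of 11 measured junction genes was past the fold in either direction, with a median of 0.18.

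Genes of the Wnt and Vegf pathways were also compared with arterial-gated cells. Of 19 Wnt pathway genes and targets, 3 were higher and 1 was lower, beside 6.35% and 4.66% of all genes. Apcdd1, a Wnt inhibitor and target, was at 418 CPM against 181, a ratio of 2.31 (1.92 to 2.79). Nkd1 was at 1.77 times (1.39 to 2.30) and Notum at 1.91 times (1.29 to 2.93), and both missed the fold with 0 arterial and venous gate UMIs, at log2 ratios of 0.27 and 0.50. Sox17, an endothelial factor on the Wnt and arterial lists, was at 0.628 times (0.567 to 0.695), and at a log2 ratio of -0.46 with thinned gates. The receptor Fzd4 was at 284 CPM (262 to 308) against 277 (240.1 to 317), with overlapping intervals. In the Vegf list 2 of 9 genes were higher, Nrp1 at 2.19 times (1.66 to 2.93) and the receptor Kdr at 1.69 times (1.39 to 2.08), and with thinned gates the log2 ratio of Nrp1 was 0.55.

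Against venous-gated cells, the same capillary cells kept arterial-side genes at higher levels and were lower in venous ones. This comparison shares its capillary group with the one above, so the 2 are not independent. Of 6558 genes, 203 (3.10%) were called higher and 204 (3.11%) lower. Of 12 venous genes, 9 were lower and 1 higher (median log2 ratio -1.55), and of 13 arterial genes 9 were higher and 1 lower (median 1.53), a median that was 0.88 with 0 arterial and venous gate UMIs. The members that went against their list were Adamts1, a protease gene of the venous list, and Eln. Barrier carriers differed little, with 1 of 21 higher, 1 lower and a median of -0.04, and 1 of 11 junction genes was higher, Emcn, which encodes an endothelial sialomucin and not a junction protein.

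Lypd1, a small membrane-anchored protein gene, was at 60.0 CPM (49.9 to 71.5) against 5.89 (3.30 to 9.71) in venous-gated cells, a ratio of 10.2 (5.94 to 18.8). Cdh13 was at 84.2 CPM against 14.1, a ratio of 5.96 (4.14 to 8.78), and Alpl at 4.85 times (3.22 to 7.50). Hey1 was at 3.83 times (2.75 to 5.41), Efnb2 at 2.97 times (2.11 to 4.23) and Tgfb2 at 2.65 times (2.10 to 3.38). The pooled levels of these genes were thus intermediate in capillary cells, below the arterial-gated and above the venous-gated level. Whether single capillary cells were intermediate was not tested. Mfsd2a, the carrier of omega-3 lysolipids that also keeps vesicle traffic low, was at 371 CPM (345 to 398) against 237 (219 to 257), a ratio of 1.57 (1.40 to 1.74), and at 296 (258 to 337) in arterial-gated cells. Rgcc was at 1.69 times (1.60 to 1.78) the venous-gated and 1.59 times (1.47 to 1.73) the arterial-gated level, and Ivns1abp at 2.12 times (1.79 to 2.52) and 2.35 times (1.78 to 3.17). Rgcc and Ivns1abp therefore stood higher in capillary cells than on either side, although against arterial-gated cells both missed the fold with 0 arterial and venous gate UMIs, at log2 ratios of 0.58 and 0.45.

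Among the genes lower than in venous-gated cells, Lcn2, the acute-phase lipocalin, had 8 UMIs against 171, a ratio of 0.0577 (0.0245 to 0.116). Vcam1 was at 0.0915 times (0.0681 to 0.121), Ptgs2 at 0.119 times (0.0688 to 0.193) and Icam1 at 0.243 times (0.196 to 0.299). Nr2f2 was at 45.5 CPM against 146, a ratio of 0.311 (0.246 to 0.391). The glutamine carrier Slc38a5, a venous-side carrier, was at 39.2 CPM against 106, a ratio of 0.371 (0.286 to 0.477). The predicted gene Gm5127 had 2 UMIs against 188, a ratio of 0.0131 (0.00158 to 0.0480). The reverse order from the arterial genes was seen for Nr2f2, which was at 25.6 CPM (15.4 to 40.0) in arterial-gated cells, and for Tmsb10, at 0.509 times (0.485 to 0.533) the venous-gated level and above the arterial-gated one.

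**Figure D3:**
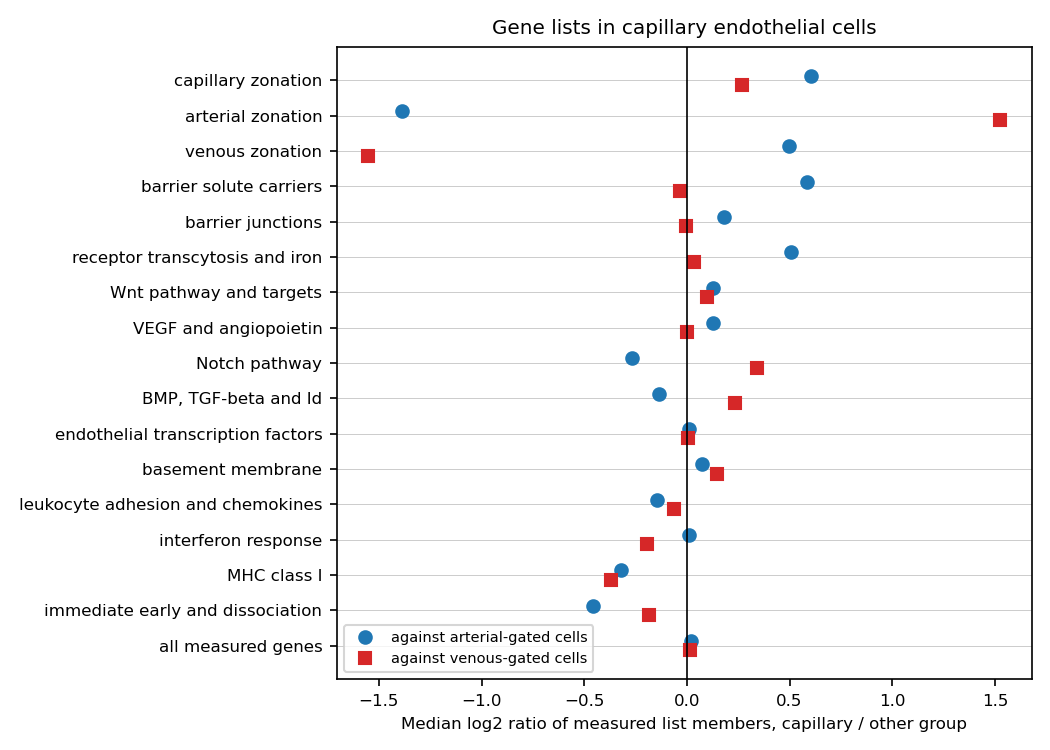
Median log2 ratio of the measured members of each gene list, capillary against arterial-gated cells (circles) and against venous-gated cells (squares). The arterial list lies at -1.39 and 1.53, the venous list at 0.50 and -1.55, and all measured genes near 0.

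Antigen presentation and interferon genes were compared because venous endothelium is a site of leukocyte entry. MHC class I genes were lower in 3 of 14 against venous-gated cells, with a median log2 ratio of -0.37, and in 1 of 13 against arterial-gated cells, with a median of -0.32, beside 3.11% and 4.66% of all genes. H2-Q6 was at 76.9 CPM (65.4 to 89.9) against 150.3 (136 to 166) in venous-gated cells, a ratio of 0.512 (0.423 to 0.617), and the peptide transporter Tap1 at 0.558 times (0.419 to 0.735). The class I heavy chain H2-K1 was at 1092 CPM (1047 to 1138) in capillary, 1389 (1305 to 1476) in arterial-gated and 1527 (1479 to 1576) in venous-gated cells, which is within the 1.5-fold limit. Interferon response genes were lower in 4 of 27 against venous-gated cells, with a median of -0.19, and in 0 of 25 against arterial-gated cells, with a median of 0.01, beside the same shares of all genes. Among them Cxcl10, a chemokine for T cells, was at 0.306 times (0.232 to 0.399) the venous-gated level, and 1 cell held 58.5% of the venous-gated UMIs; without the highest cell of each group its log2 ratio was -0.98 in place of -1.70.

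The members were next separated by which of the 2 capillary genes they held. Genes of the arterial list were highest in cells with Cxcl12 alone, lower in cells that held both and lowest in cells with Car4 alone, while the venous list followed the reverse order only through Tmsb10. Car4 was found in a larger share of venous-gated than of arterial-gated cells, and Cxcl12 the reverse. Genes that vary with Car4 and Cxcl12 therefore differ through this division, and the order describes the groups so divided. The 42 cells with Car4 alone had a median of 2342 UMIs and 118349 counted UMIs in all, those with both 3226 and those with Cxcl12 alone 2872, so low counts in the first group are imprecise. The arterial list summed to 4850 CPM (4697 to 5007) with Cxcl12 alone, 3687 (3578 to 3799) with both and 2239 (1978 to 2526) with Car4 alone, beside 8558 in arterial-gated and 2753 in venous-gated cells. The venous list summed to 1781, 2413 and 3853 CPM, beside 1790 and 4701, and Tmsb10 alone gave 302 of the 456 venous list UMIs in cells with Car4 alone. Without Tmsb10 the venous list summed to 1159 CPM (1084 to 1237) with Cxcl12 alone, 946 (891 to 1004) with both and 1301 (1104 to 1524) with Car4 alone, so cells with both were lowest. Arterial-gated cells were at 1567 (1478 to 1660), and only the interval of cells with Car4 alone overlapped theirs. In the direct comparison of the end groups, 3 venous genes were measured, of which Tmsb10 was higher and Adamts1 lower, and their median log2 ratio was -0.54. The capillary list was highest in cells with both, at 15686 CPM (15459 to 15915), against 13568 with Cxcl12 alone and 13900 (13236 to 14588) with Car4 alone.

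Single genes of the arterial list followed this order. Cdh13 was at 374 CPM in arterial-gated cells, 185 with Cxcl12 alone, 24.9 with both and 14.1 in venous-gated cells, with 0 UMIs in cells with Car4 alone. Against the 145 UMIs with Cxcl12 alone, this gave a ratio of at most 0.137 with 0 set to 3 counts over the group. Stmn2 was at 449, 180.3, 39.4 and 8.45 CPM from arterial-gated cells to cells with Car4 alone, where it had 1 UMI, and at 22.8 in venous-gated cells. Tm4sf1, a tetraspanin-like surface protein gene, was at 867 CPM (803 to 935) with Cxcl12 alone, 517 (476 to 560) with both and 262 (178 to 372) with Car4 alone, with no overlap of these intervals. Tfrc ran the other way, at 311 CPM (273 to 352), 488 (449 to 530.3) and 718 (574 to 888), and so did Tmsb10, at 623 (569 to 681), 1466 (1398 to 1538) and 2552 (2272 to 2856). Slc38a5, with 8 UMIs in cells with Cxcl12 alone and 19 with Car4 alone and so under the minimum of 100 UMIs, was at 10.2 CPM (4.42 to 20.2), 46.3 (34.8 to 60.4) and 161 (96.7 to 251), and thus in cells with Car4 alone at a level whose interval overlapped that of venous-gated cells, 106 (93.3 to 119). Slc2a1 varied little, from 3211 to 3762 CPM.

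**Figure D4:**
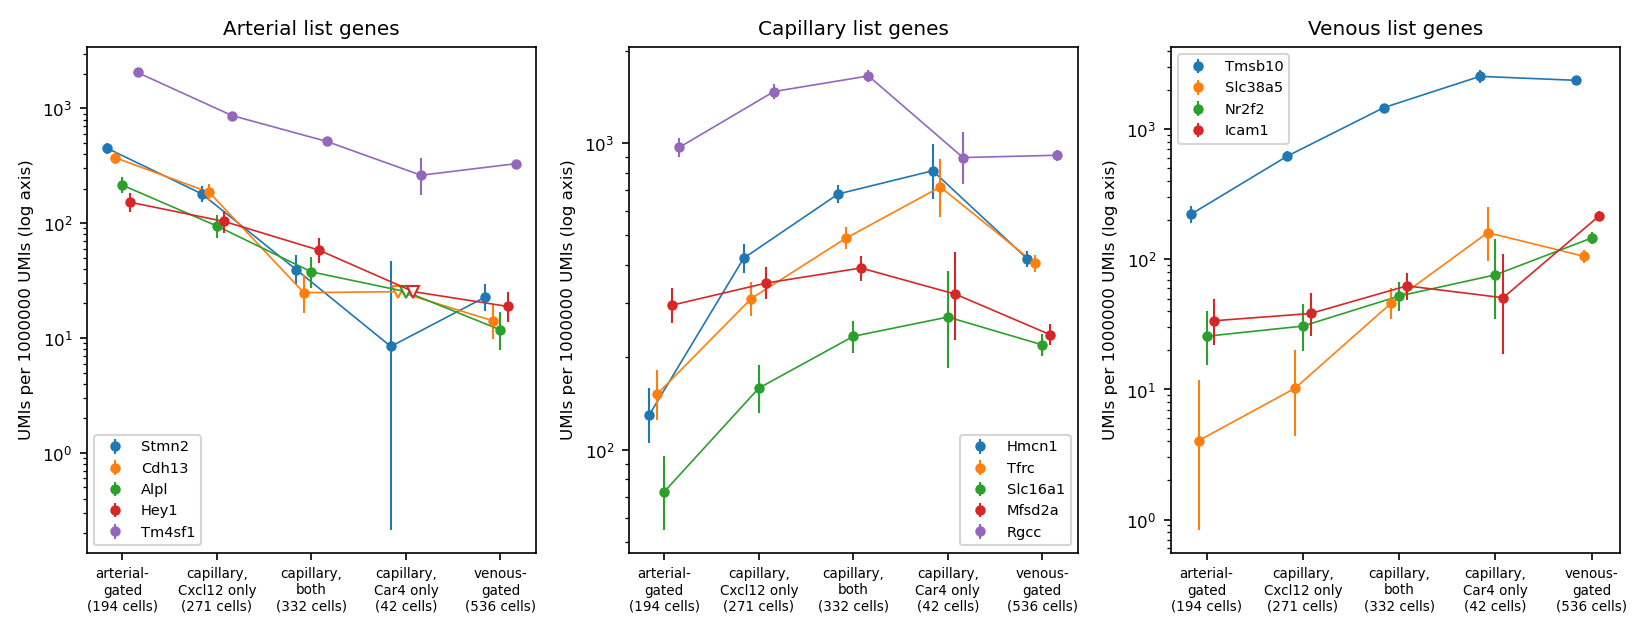
UMIs per 1000000 (log axis) of genes of the arterial, capillary and venous lists in arterial-gated cells, capillary cells with Cxcl12 alone, with both genes or with Car4 alone, and venous-gated cells, with exact 95% Poisson intervals; open triangles stand for 0 UMIs and are drawn at the level of 3 UMIs. Stmn2 passes from 449 to 8.45 and Tmsb10 from 223 to 2552 between arterial-gated cells and capillary cells with Car4 alone.

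In the ordered comparison, 4147 genes were measured over the members, and 982 of them (23.7%) were highest with Cxcl12 alone and lowest with Car4 alone, while 981 (23.7%) had the opposite order. Of 12 arterial genes, 9 were in the first order and 0 in the second. Of 9 caveola and fenestra genes, 7 were in the first order and 0 in the second, among them Cav1, the main caveolin, at 223 CPM (191 to 258), 222 (196 to 251) and 135 (77.3 to 220), where the intervals overlapped. Of 12 MHC class I genes, 8 were in the first order and 1 in the second, with H2-K1 at 1261 (1183 to 1342), 995 (939 to 1054) and 929 (764 to 1120) CPM. The median log2 ratio of class I genes between the ends of this order was -0.46, and 0.17 with 0 arterial and venous gate UMIs. Wnt pathway genes had 8 of 19 in the second order and 3 in the first, and Apcdd1 was at 343 (303 to 386), 455 (417 to 495) and 549 (424 to 700.0) CPM. Barrier carriers had 7 of 20 in the second order and 3 in the first, beside 23.7% of all genes in each.

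Cells with Car4 alone were also compared directly with those with Cxcl12 alone. Of 1971 genes, 132 (6.70%) were called higher and 215 (10.9%) lower. Without the highest cell of each gene the counts were 63 and 440. That alternative kept the full group totals, so it lowers levels more in the group of 42 cells. Its counts shift through that and are no measure of outlying cells. With 0 arterial and venous gate UMIs the counts were 67 and 90. Tmsb10 was at 4.10 times (3.54 to 4.74) and Adgrl3 at 2.53 times (2.02 to 3.15), and Apod, a lipid-binding apolipoprotein gene, was at 473 CPM against 173, a ratio of 2.74 (1.97 to 3.77). Tfrc was at 2.31 times (1.78 to 2.97), Slc16a1 at 1.71 times (1.12 to 2.53) and Slc7a1 at 1.60 times (1.28 to 1.99), the last missing the fold with cells weighed equally, at a log2 ratio of 0.47. The ETS factor Fli1 was at 1.81 times (1.39 to 2.32), and at a log2 ratio of 0.47 with thinned gates. Lower genes included Glul at 0.364 times (0.268 to 0.484), Emcn at 0.412 times (0.268 to 0.608) and Edn1, the vasoconstrictor endothelin, at 0.317 times (0.167 to 0.551). Of 9 measured arterial genes, 6 were lower and 0 higher (median log2 ratio -1.61). With 0 arterial and venous gate UMIs that median was -0.71, and Edn1 was at -0.49, no longer past the fold. Rgcc, a capillary list gene, was at 0.609 times (0.494 to 0.744), and Hmcn1, another, at 1.93 times (1.52 to 2.43), so the genes of the capillary list were not highest in the same members. Each missed the fold in cells of 3000 to 9000 UMIs, at log2 ratios of -0.42 and 0.47.

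Clustering of the endothelial cells without the gating genes did not return the capillary cells as 1 cluster. It gave 7 clusters, and capillary cells lay mainly in 3 of them. Cluster 0, led by hemoglobin genes and the growth factor binding gene Igfbp5, held 234 capillary cells (36.3%). Hemoglobin and other red cell markers were found in 58 capillary cells over all clusters, and 1 cell held 25.6% of these UMIs. Most of the 234 cells therefore held no hemoglobin UMI, although hemoglobin genes led the cluster. Cluster 5, led by Sdk1, Lmntd1 and Megf6 with Hmcn1, Adgrl3 and Tfrc among its first 10 genes, held 185 (28.7%), and cluster 2, led by Lypd1, Igfbp3 and Stmn2, held 141 (21.9%). Cluster 2 also held 82.0% of arterial-gated cells, 40.2% of capillary cells with Cxcl12 alone and 2.38% of those with Car4 alone. Cluster 5 held 54.8% of capillary cells with Car4 alone, 23.6% of those with Cxcl12 alone and 25.4% of venous-gated cells. Its cells had a median of 2416 UMIs, the lowest of the clusters. Cluster 4, led by Gm5127, Lcn2 and Icam1, held 31.5% of venous-gated but 2.33% of capillary cells. Of the small clusters, 1 led by ciliated-cell genes held 8 capillary cells, and 17 of its 19 cells were called doublets, and 1 led by mural genes held 5.

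**Figure D5:**
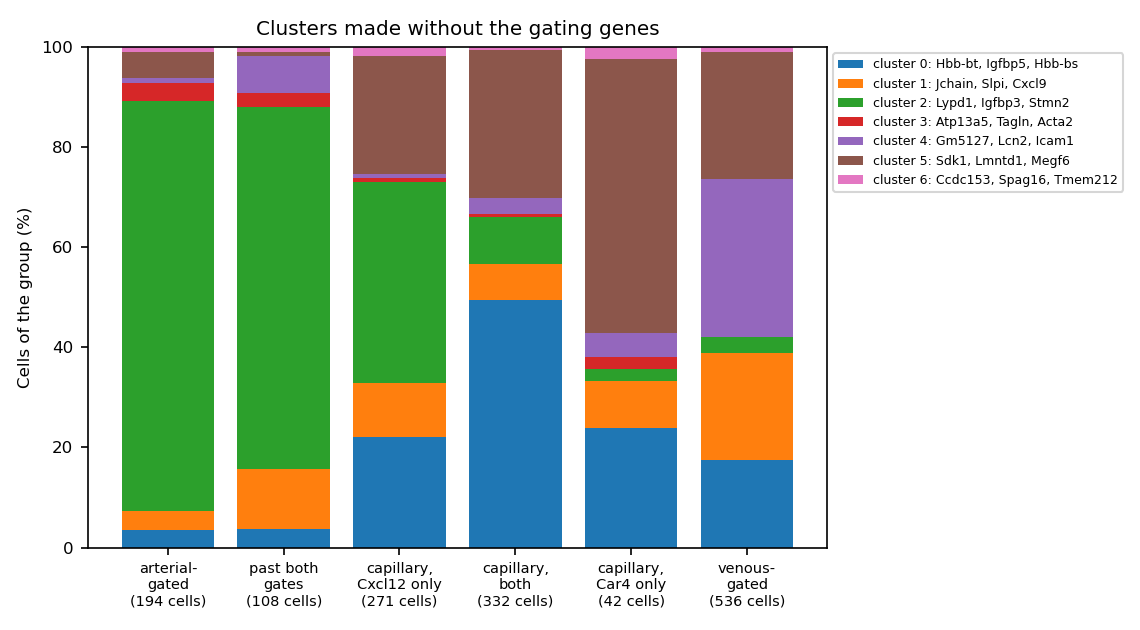
Share of each endothelial group in the 7 clusters made without the gating genes, in percent of its cells, with the 3 leading genes of each cluster in the legend. Cluster 2 takes 82.0% of arterial-gated cells, 40.2% of capillary cells with Cxcl12 alone and 2.38% of those with Car4 alone.

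The 38 endothelial cells without Car4, Cxcl12 or a zone call were the remaining neighbours of the capillary cells. They had a median of 1874 UMIs, 10.5% of them were called doublets against 2.17% of capillary cells, and 1 cell held 99.7% of their Lyz2, a myeloid gene. The deepest cell had 17579 of their 89108 UMIs, and 1 cell held 85.2% of their microglia marker UMIs. The levels of the group thus rest in large part on few cells. Of 4275 genes, 1175 (27.5%) were called higher in capillary cells and 508 (11.9%) lower. Without the highest cell of each gene the counts were 2081 and 131. That alternative kept the full group totals and so lowers levels more in the 38 cells, which by itself moves the counts this way. With thinned gates 543 genes were higher. Of the 16 capillary list genes, 13 were higher in capillary cells (median log2 ratio 1.10). The cells were divided by Car4 and Cxcl12 UMIs, so genes that vary with those genes differ through the division. Hmcn1 was at 590.2 CPM against 162, a ratio of 3.63 (2.16 to 6.67), and Slc7a5 at 1352 CPM against 661, a ratio of 2.05 (1.57 to 2.71). The part of depth, doublets and myeloid RNA in these ratios was not tested.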

How the data were processed

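RNA was measured in 1 single-cell library of 6672 barcodes and 41915122 UMIs. The deposited matrix holds whole-number UMI counts per gene and barcode from Cell Ranger 8.0.1, with GRCm39 as the build in the submitters' processing notes. Its annotation version was not given in the sources used. Barcodes with under 500 genes or over 15% mitochondrial UMIs were removed (187), which left 6485 with a median of 5564 UMIs. UMIs were summed over each group. The 17 gating genes and 13 mitochondrial genes were left out of totals and comparisons, and log2 ratios use sums with 0.5 UMI added. Levels have exact Poisson intervals, ratios exact binomial ones and shares Clopper-Pearson ones, all at 95%. No p-value was computed, since the library has no replicate and mice were pooled.

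Doublets were kept. Scrublet, run with 0.05 as the expected rate, called 261 (4.02%), 14 of them capillary, and leaving them out was an alternative. The 7 clusters came from 2000 variable genes, 20 principal components, 15 neighbours, Leiden resolution 0.5 and seed 0. Gene names are those of the files, and the ependymal marker Pifo was not matched. Promoters are RefSeq's. The comparison code was tested on simulated data. Cells were clustered in scanpy 1.11.5 with igraph 0.11.9 and scikit-learn 1.9.0, intervals came from scipy 1.17.1 and figures from matplotlib 3.10.9, under Python 3.11.15 with pandas 2.3.3 and numpy 2.4.6.

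The members, gene lists and tests were chosen with earlier results of these data known. Genes named are list members and, in each comparison, the 12 highest and 12 lowest ratios past 1.5-fold with at least 50 CPM in the higher group. Not every gene so selected is printed. Another gene is not reported here. Alternatives varied the cell filter, doublets, gates, weighing of cells, depth range, totals, lowest UMI count and fold. A pair was added after the data were seen: leaving out cells with at least 10 hemoglobin UMIs or in the mural and ciliated clusters, and leaving out the highest cell of each gene. The latter took out a gene's UMIs in the highest cell of each group but kept the group totals.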

Additional observations from a re-analysis of the deposited data

How the results depend on the processing

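The share of endothelial cells that are capillary was 42.4%, 54.9% of 1336 cells when those under 2000 UMIs were left out and the others thinned to 2000 before gating, 39.5% with at least 2 Car4 or Cxcl12 UMIs and 22.9% with 0 arterial and venous gate UMIs. Counts of genes past the fold moved with the limits set on them. With at least 50 UMIs per gene, 320 were higher and 408 lower against the other endothelial cells, 587 and 466 against arterial-gated, 458 and 350 against venous-gated and 1874 and 1018 against ungated cells, and 380 and 547 between cells with Car4 alone and with Cxcl12 alone. With at least 200 UMIs the counts in the same order were 49 and 114, 162 and 114, 92 and 108, 617 and 210, and 40 and 62. With a fold of 2 they were 22 and 74, 85 and 69, 57 and 70, 597 and 165, and 13 and 78. With 0 arterial and venous gate UMIs, 341 were lower against the others, 160 higher and 153 lower against arterial-gated, 700 and 336 against ungated cells, and 67 and 90 between the Car4 and Cxcl12 groups. Against ungated cells, 543 were higher with thinned gates and 573 with at least 2 Car4 or Cxcl12 UMIs. In cells of 3000 to 9000 UMIs, 138 were lower between the Car4 and Cxcl12 groups. Without the highest cell of each gene, 2081 were higher and 131 lower against ungated cells, and 63 and 440 between the Car4 and Cxcl12 groups. These last counts shift because the group totals were kept, which lowers levels more in the smaller group.

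Against the other endothelial cells, 8 results changed sign. With thinned gates the log2 ratios were -0.14 for the astrocyte marker median, -0.55 for Ccdc153, -0.69 for Rarres2, 1.42 for H2-Aa, 0.18 for Cd74 and -0.96 for Slc1a2. With 0 arterial and venous gate UMIs they were -0.84 for Hbb-bt and -0.32 for Rarres2. The cause was not tested. Among named genes, 405 of the recomputed values against venous-gated cells stayed on the same side of the fold and 2 did not, against 625 and 24 for arterial-gated cells. Against the other endothelial cells 372 stayed, 17 fell short of the fold and 7 changed sign. Between the Car4 and Cxcl12 groups 314 stayed, 21 fell short and 6 newly passed it. With 0 arterial and venous gate UMIs, the comparison groups changed as well. Arterial- and venous-gated cells gained former members and lost cells with a UMI of the other zone, and ungated cells fell from 38 to 17. No paired analysis was possible because there is 1 library. Depth limits the 42 cells with Car4 alone and the 38 ungated cells most.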

Other observations

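An astrocyte marker was unevenly spread over capillary cells. Slc1a2, the astrocyte glutamate carrier, had 187 UMIs in 50 capillary cells, 90.5 CPM (78.0 to 104), and 1 cell held 43.9% of them. It was at 197 CPM with Cxcl12 alone, 27.4 with both genes and 8.45 with Car4 alone, and at 89.1 and 16.1 in arterial- and venous-gated cells. The arterial list fell in the same order over the members, and Slc1a2 was among the leading genes of cluster 2. Whether its UMIs were astrocyte RNA or expression by endothelium was not tested. A venous-type marker outside the gates, Ackr1, an atypical chemokine receptor of venules, had 1 UMI in the 645 capillary cells, against 20.8 CPM (15.6 to 27.2) in 21 venous-gated cells. The Wnt target Axin2 was at 120 CPM (105 to 135) in capillary, 101 (79.6 to 127) in arterial-gated and 112 (99.2 to 126) in venous-gated cells, with overlapping intervals.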
